A study of Mus musculus with 29 samples.

Results

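The effect of the deacetylase inhibitor trichostatin A (TSA) on RNA was measured across both sorted fractions of mouse cortex at embryonic day E16.5, with Tbr2+ and Tbr2- nuclei read together. The members were the 10 RNA sequencing libraries of a series of 29 samples, chosen by assay (4 TSA and 6 vehicle libraries), and all 10 entered the fit. They comprised 2 TSA libraries from Tbr2+ nuclei, 2 TSA libraries from Tbr2- nuclei, 3 vehicle libraries from Tbr2+ nuclei and 3 vehicle libraries from Tbr2- nuclei. The rest were 15 H3K9ac chromatin immunoprecipitation libraries, used here for 1 description, and input libraries, not analysed here. The question addressed was which transcripts moved the same way in both fractions when cortex met the inhibitor instead of its vehicle. No dose, duration, mouse strain or further genotype was given by the labels for any group. The series describes nuclei sorted by flow cytometry, whereas the RNA protocol text describes TRIZOL extraction of whole tissue, so the RNA of nuclei and of whole cells cannot be told apart from the text. No label said that replicates were separate embryos or litters, so p-values measure the spread between these libraries.

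Lysine deacetylases remove acetyl groups from histone tails and from many other proteins, and acetylation of lysine 9 of histone H3 marks the starts of active genes. TSA, a hydroxamate, blocks the zinc-dependent deacetylases and leaves the NAD-dependent sirtuins untouched. In the developing cortex, radial glia divide at the ventricle and give rise to basal progenitors, which express Tbr2, the transcription factor encoded by Eomes, and divide once more to produce projection neurons.

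Eomes followed the sort label in every library. Eomes (ENSMUSG00000032446) had 391 and 462 CPM in Tbr2+ and 14.2 and 8.24 CPM in Tbr2- TSA libraries, against 409.9, 371 and 548 CPM in Tbr2+ and 22.0, 13.9 and 18.2 CPM in Tbr2- vehicle libraries. The Tbr2+ libraries were all far above the Tbr2- libraries, whereas TSA and vehicle ranges overlapped in both fractions. CPM are counts scaled to a common library total, here after TMM scaling. Library totals lay between 22171133 and 26282652 counts with TSA and between 18567111 and 24106766 with vehicle. Genes with at least 1 count numbered 22121 to 23303 with TSA and 22460 to 23924 with vehicle, a difference of -754 (exact two-sided permutation within fractions, p = 0.06, 0.12 after adjustment over 4 library measures). The share of counts on mitochondrial genes was higher with TSA by 0.14 percentage points (exact permutation, p = 0.04, adjusted 0.12). The first principal component held 34.3% of the variance and separated the fractions. On the second (16.8%), the TSA libraries numbered 1 lay farthest out, at -72.3 in Tbr2+ and -88.8 in Tbr2- nuclei, with those numbered 2 at -18.6 and -33.6 and all vehicle libraries between 13.8 and 53.6.

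With both fractions fitted together, TSA raised a large set of abundant transcripts of protein synthesis, respiration and the cytoskeleton. It lowered a more varied set that included splicing kinases, long noncoding RNAs and the spliceosome factor gene Cwc22. Of 20078 genes tested, 1314 (6.54%) were higher and 844 (4.2%) lower with TSA at an adjusted p below 0.05 (edgeR quasi-likelihood test with the fraction as an additive term, Benjamini-Hochberg over all genes). The rises were shallow and the falls deeper: the median log2 fold change was 0.63 among genes that rose and -0.80 among those that fell, against -0.07 over all genes tested. Only 89 of the higher genes exceeded 2-fold, whereas 305 of the lower genes fell more than 2-fold. The genes that rose were also the more abundant, with a median of 92.5 CPM, against 30.6 CPM for those that fell and 8.08 CPM for those not called. The shares of all genes set beside the lists below are over genes of any level, not over genes of like abundance.

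The direction was the same in both fractions for each of the 2158 called genes, which were selected for a common effect, and for 67.2% of all genes tested. In 1192 of the higher and 697 of the lower genes, every TSA library lay outside the vehicle range in each fraction. Over all genes tested, 8.85% had TSA ranges above the vehicle ranges in both fractions and 6.82% had them below. Tested within single fractions, Cwc22 and mt-Rnr1 each had an adjusted p of 0.0529 in Tbr2+ and 0.0481 in Tbr2- nuclei (edgeR). Rpl38 and Tmsb10 each had 0.0948 and 0.0481 in the same test, so none of these genes passed in Tbr2+ nuclei alone. Between the 2 fractions, whose control libraries differ, log2 fold changes correlated with Pearson's r of 0.243 over all tested genes and 0.644 over the 10392 genes of at least 10 CPM, a description across genes of 1 pair of contrasts. The test of a difference between fractions called 0 genes, or 0% of those tested (edgeR, smallest adjusted p = 0.634), with 1103 genes (5.49%) below an unadjusted p of 0.05. DESeq2 called 12 genes and limma-voom called 0.

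**Figure D1:**
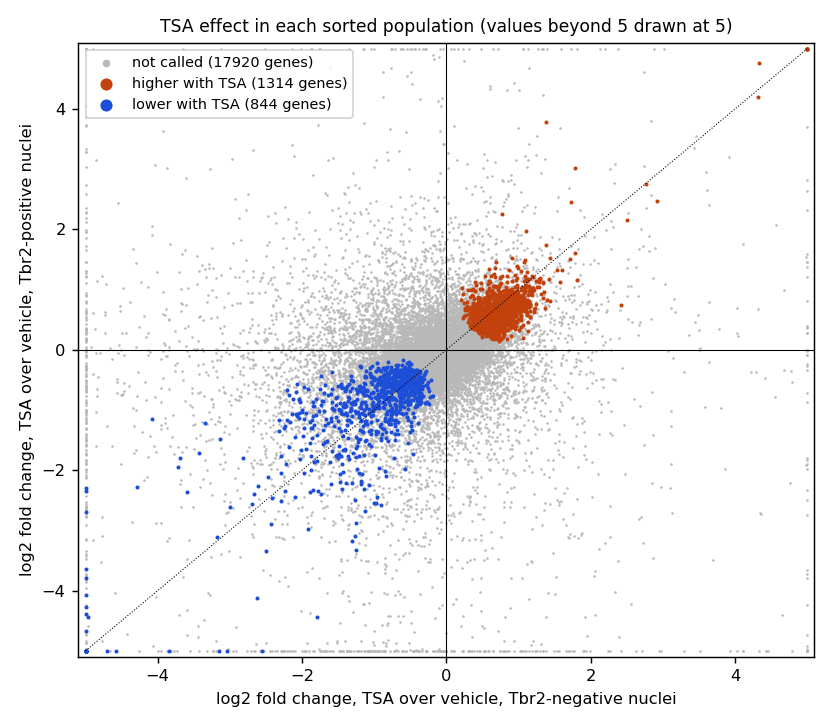
Log2 fold change of TSA over vehicle in Tbr2+ nuclei (vertical) against Tbr2- nuclei (horizontal) for each tested gene, with 1314 genes called higher in orange, 844 called lower in blue and the rest in grey. The called genes lie in the quadrants where both fractions share a sign, with a median of 0.63 for those higher and -0.80 for those lower over both fractions, and values beyond 5 are drawn at 5.

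The number of calls rested on particular libraries. Without both TSA libraries numbered 1, 5 genes were higher and 2 lower (edgeR), while without both TSA libraries numbered 2, which leaves as many libraries, 1135 were higher and 902 lower. Leaving out single libraries gave the lowest counts without the Tbr2- TSA library numbered 1 (506 higher, 240 lower) and without the Tbr2+ TSA library numbered 1 (687 and 338). Counts were also more than 1.5 times smaller without the Tbr2+ vehicle library numbered 1 (814 and 398), without the Tbr2- vehicle library numbered 1 (832 and 433) and, for lower genes, without the Tbr2- TSA library numbered 2 (499). With the mean level of nuclear long noncoding RNAs as a covariate, 3 genes were higher and 1 lower, while the median log2 fold change of ribosomal protein genes was 0.60, against 0.84 as reported, and that of respiratory chain genes 0.44, against 0.67. Of the 107 called genes that the naming rule selects, 4 passed without both TSA libraries numbered 1 (mt-Rnr1, Tmsb10, Cwc22 and Cox7b), 86 without both numbered 2, 2 with the covariate, 63 with both fractions summed per replicate and 68 to 103 with any 1 library left out. Each other call named by that rule below was thus lost without the TSA libraries numbered 1. Cwc22 and Cox7b were the named genes that passed in each of the 22 alternative settings, and no named gene that had passed changed its direction in any of them.

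**Figure D2:**
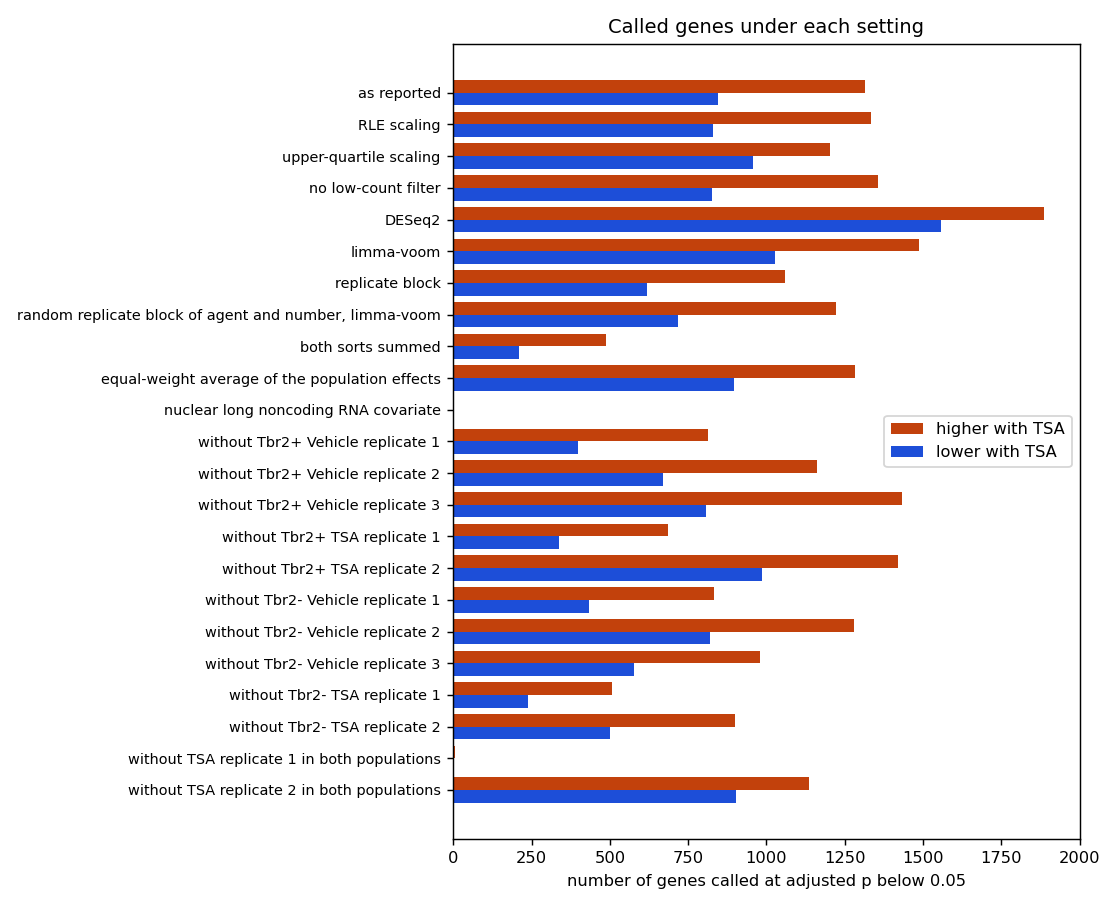
Number of genes called higher (orange) and lower (blue) with TSA at an adjusted p below 0.05, as reported (1314 and 844) and under each of 22 alternative settings. Bars shrink to 5 and 2 genes without both TSA libraries numbered 1, and to 3 and 1 with the noncoding RNA covariate.

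Genes of the cytosolic ribosome rose almost as a block. Of 79 ribosomal protein genes tested, 74 were higher and 0 lower, and the median log2 fold change was 0.84, with medians of 0.81 in Tbr2+ and 0.81 in Tbr2- nuclei. Their summed level was 17090 and 14890 CPM in Tbr2+ and 19910 and 15530 CPM in Tbr2- TSA libraries, against 7337, 9760 and 10850 CPM in Tbr2+ and 8588, 12410 and 10130 CPM in Tbr2- vehicle libraries. The lowest TSA sum stood above the highest vehicle sum in each fraction. Rpl38, a protein of the large subunit, had 105 and 105 CPM in Tbr2+ and 178 and 139.7 CPM in Tbr2- TSA libraries, against 37.2, 51.0 and 64.8 CPM in Tbr2+ and 53.5, 77.7 and 64.0 CPM in Tbr2- vehicle libraries. All TSA values exceeded all vehicle values, with a log2 fold change of 1.17 ± 0.16 (SE; edgeR, adjusted p = 0.00286). The largest rises in the list were those of Rpl39 (1.24 ± 0.17), Rps29 (1.23 ± 0.15), Rpl32 (1.21 ± 0.17) and Rps12 (1.17 ± 0.15), each with an adjusted p at or below 0.00286 (edgeR). Members that did not pass included Rpl24 (-0.45), Rpl10a (0.28), Rpl3 (0.33) and Rpl26 (0.48) on the same scale. Ribosomal protein genes have many processed pseudogenes with near-identical sequence, so their read assignment is uncertain. Without the TSA libraries numbered 1 the median of the list was 0.68.

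Translation factors followed with smaller changes, 23 of 38 higher and 0 lower (median 0.52). Tpt1, the translationally controlled tumour protein whose messenger carries the same kind of start as ribosomal protein genes, had 276 and 228 CPM in Tbr2+ and 267 and 225 CPM in Tbr2- TSA libraries, against 93.7, 123 and 126 CPM in Tbr2+ and 77.6, 141 and 133 CPM in Tbr2- vehicle libraries. Its TSA libraries were above its vehicle libraries in both fractions (1.10 ± 0.16; edgeR, adjusted p = 0.00306). Naca and Btf3, the partners of the nascent polypeptide-associated complex, rose by 0.94 and 0.83 on the log2 scale, and the initiation factor gene Eif3g by 0.63. Among the members that did not pass were Eif4g1 (-0.33), Eif3a (0.03), Eif5b (0.08) and the elongation factor gene Eef2 (0.14).

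Mitochondrial genes encoded in the nucleus rose as well. Of 76 genes of the respiratory chain and ATP synthase, 60 were higher and 1 lower, with a median of 0.67 (0.56 in Tbr2+, 0.73 in Tbr2- nuclei). Cox7b, a small subunit of cytochrome c oxidase, had 255 and 419.8 CPM in Tbr2+ and 353 and 481 CPM in Tbr2- TSA libraries, against 150.3, 165 and 181 CPM in Tbr2+ and 178, 215 and 170.0 CPM in Tbr2- vehicle libraries. Here the TSA libraries numbered 2 were the higher ones, and no TSA library overlapped the vehicle range (1.09 ± 0.15; edgeR, adjusted p = 0.00286). The adjusted p of Cox7b was 0.00130 without the TSA libraries numbered 1 and 0.0390 with the noncoding RNA covariate (edgeR). Atp5e, the epsilon subunit of ATP synthase, rose by 1.11 ± 0.15, Ndufc1 of complex I by 0.95 ± 0.13 and Uqcrb of complex III by 0.94 ± 0.13, each with an adjusted p of 0.00286 (edgeR). The 1 member that fell was Sdha (-0.47), the flavoprotein of complex II, and Ndufs1, the largest subunit of complex I, had -0.25 and did not pass. Mitochondrial ribosomal protein genes had 37 of 76 higher and 0 lower (median 0.43), led by Mrpl42 (0.96 ± 0.15), Mrps33 (0.88 ± 0.17) and Mrpl18 (0.87 ± 0.14).

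RNA made inside mitochondria was higher in the TSA libraries too. The ribosomal RNA gene mt-Rnr1 had 112 and 86.7 CPM in Tbr2+ and 167 and 109 CPM in Tbr2- TSA libraries, against 26.3, 24.4 and 39.2 CPM in Tbr2+ and 46.2, 55.0 and 57.3 CPM in Tbr2- vehicle libraries. No TSA library overlapped the vehicle range in its fraction (1.56 ± 0.17; edgeR, adjusted p = 0.00145), and mt-Rnr2 rose by 1.01 ± 0.18. Of 9 tested genes of the mitochondrially encoded list (no transfer RNA genes), 2 were higher (22.2%, against 6.54% of all genes) and 0 lower. Their summed level was 3196 and 3299 CPM in Tbr2+ and 4827 and 3297 CPM in Tbr2- TSA libraries, against 940.4, 1889 and 3083 CPM in Tbr2+ and 1036, 2784 and 2575 CPM in Tbr2- vehicle libraries. The lowest sums belonged to the 2 vehicle libraries numbered 1, and in Tbr2+ nuclei the highest vehicle sum lay just under the TSA sums. The part of mitochondrial RNA in the changes of nuclear genes was not tested.

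Protein quality control and the cytoskeleton showed the same direction with fewer calls. Of 31 proteasome genes, 15 were higher and 0 lower (median 0.43). The members that rose most were core particle subunits, Psmb3 (0.82 ± 0.16), Psmb6 (0.75 ± 0.13), Psma4 (0.68 ± 0.13) and Psma2 (0.62 ± 0.14). The 16 that did not pass included the base subunits Psmd1 (-0.25) and Psmd2 (-0.08). Among 19 chaperone genes, 5 were higher (26.3%) and 0 lower, against 6.54% and 4.2% of all genes. Among those 5 were Pfdn4, Pfdn1 and Pfdn5 of prefoldin, the co-chaperone that hands unfolded actin and tubulin to the chaperonin ring. Pfdn4 had 85.6 and 78.9 CPM in Tbr2+ and 111 and 102 CPM in Tbr2- TSA libraries, against 32.6, 46.0 and 45.8 CPM in Tbr2+ and 45.6, 54.7 and 49.1 CPM in Tbr2- vehicle libraries. Its TSA values did not overlap those of vehicle (1.04 ± 0.12; edgeR, adjusted p = 0.00217). The ring subunits themselves, such as Cct3 (0.07) and Cct5 (0.31), did not pass.

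Among genes of actin turnover, those of the thymosins rose most. Of 23 tested, 11 were higher and 0 lower (median 0.48). Tmsb4x, which encodes thymosin beta 4, the main sequestering protein of free actin monomers, had 4053 and 3270 CPM in Tbr2+ and 7060 and 4932 CPM in Tbr2- TSA libraries, against 1290, 1859 and 1886 CPM in Tbr2+ and 1779, 3076 and 2282 CPM in Tbr2- vehicle libraries. Its relative Tmsb10 had 371 and 367 CPM in Tbr2+ and 706 and 559.8 CPM in Tbr2- TSA libraries, against 103, 163 and 178 CPM in Tbr2+ and 168, 264 and 225 CPM in Tbr2- vehicle libraries. For both genes the lowest TSA library exceeded the highest vehicle library within each fraction, with log2 fold changes of 1.23 ± 0.17 and 1.43 ± 0.16 (edgeR, adjusted p = 0.00286 and 0.00202). Dstn, which severs filaments, rose by 0.80, profilin 2 (Pfn2) by 0.72, cofilin 1 (Cfl1) by 0.65 and beta actin (Actb) by 0.64. Among 21 neuronal microtubule genes, 4 were higher (19%) and 0 lower, against 6.54% and 4.2% of all genes. The 4 were the tubulin-sequestering stathmins Stmn1 (0.74), Stmn2 (0.85) and Stmn3 (0.68), and the tubulin gene Tubb5 (0.39). The 17 members that did not pass included the microtubule-associated protein genes Map1a (-0.37), Map1b (-0.01) and Map2 (0.09).

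**Figure D3:**
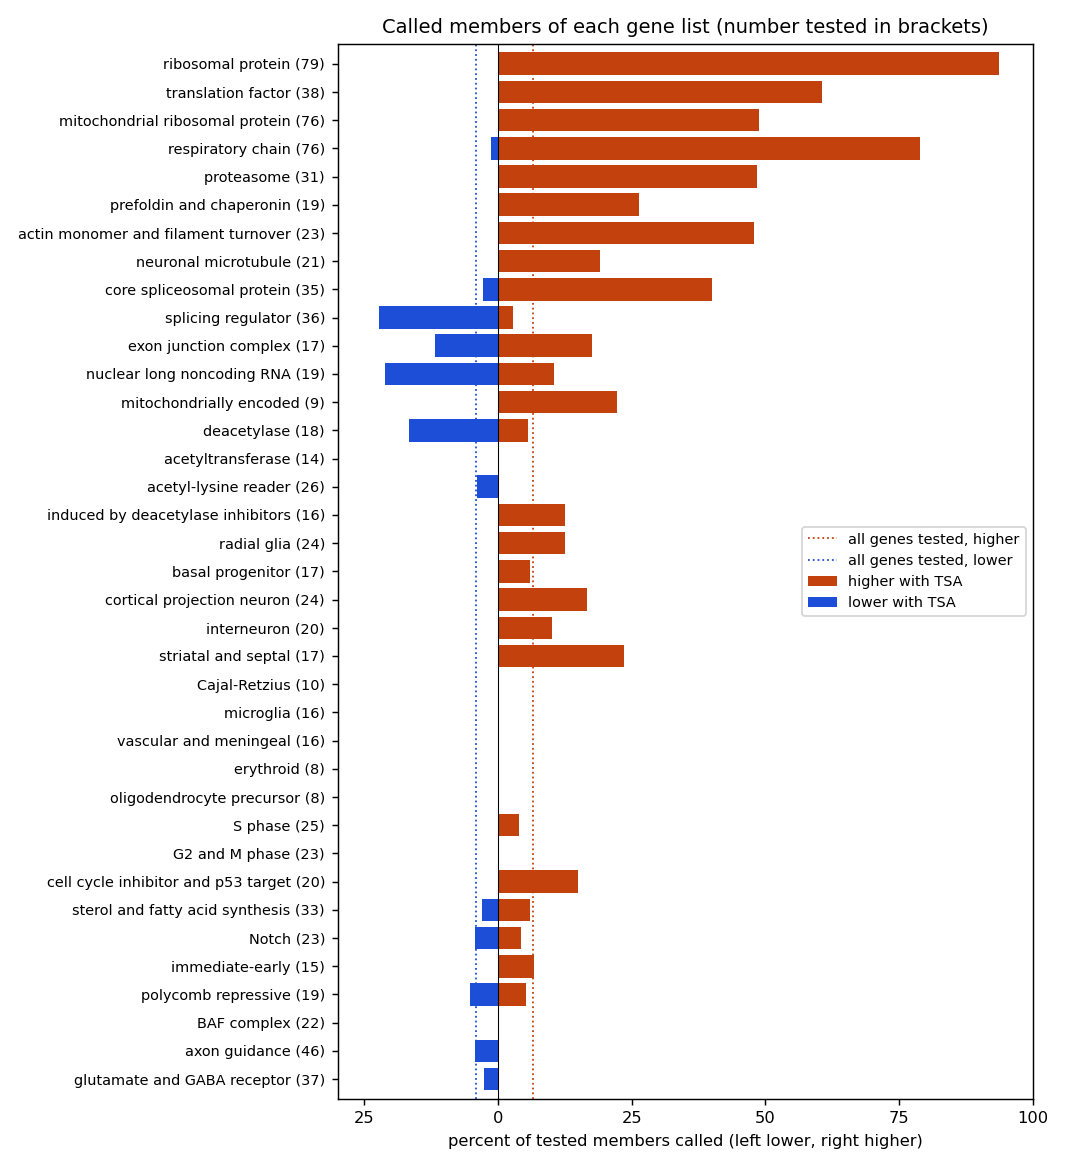
Percent of the tested members of each gene list called higher (orange, right) or lower (blue, left) with TSA, with dotted lines at the 6.54% and 4.2% called over all genes. Ribosomal protein (74 of 79) and respiratory chain (60 of 76) genes reach farthest to the right, and splicing regulators (8 of 36) and nuclear long noncoding RNAs (4 of 19) farthest to the left.

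Splicing genes divided by role. Of 35 core spliceosomal genes, 14 were higher (40%) and 1 lower (2.86%), against 6.54% and 4.2% of all genes (list median 0.38). The higher ones were largely the small Sm and Lsm ring proteins, such as Snrpd3 (0.96 ± 0.15), Snrpg (0.85 ± 0.15), Snrpd2 (0.75 ± 0.13) and Lsm7 (0.75 ± 0.13), while Snrnp70, the U1 protein that recognises 5′ splice sites, fell (-0.83). Of 36 splicing regulators, 1 was higher (2.78%) and 8 lower (22.2%), with a median of -0.19. Srsf5, a serine and arginine-rich factor, had 299.6 and 478 CPM in Tbr2+ and 242 and 292 CPM in Tbr2- TSA libraries, against 1124, 925 and 681 CPM in Tbr2+ and 521, 460.4 and 404 CPM in Tbr2- vehicle libraries. Every TSA library lay below its vehicle range (-1.01 ± 0.18; edgeR, adjusted p = 0.00493). Clk1, a kinase that phosphorylates such factors, had 453 and 559.7 CPM in Tbr2+ and 255 and 341 CPM in Tbr2- TSA libraries, against 1032, 856 and 676 CPM in Tbr2+ and 626, 539 and 518 CPM in Tbr2- vehicle libraries. Its ranges were likewise apart (-0.83 ± 0.14; edgeR, adjusted p = 0.00471), and the TSA libraries numbered 1 were the lower ones in both fractions, as they were for Srsf5. Clk4, a close relative (-0.59 ± 0.11), and Leng8 (-0.94 ± 0.14) fell, and Pnisr (-0.66), Rbm5 (-0.63), Luc7l3 (-0.54) and the O-GlcNAc transferase gene Ogt (-0.42) fell with them. Hnrnpd was the regulator that rose (0.49). Several of these genes are known to hold retained introns in nuclear RNA, which counts per gene do not separate. Without the TSA libraries numbered 1, Srsf5 had -0.78 and Clk1 -0.65, and neither passed (edgeR, adjusted p = 0.103 and 0.115).

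Cwc22 had the smallest p of all genes. Cwc22 (ENSMUSG00000027014) encodes a spliceosome protein that escorts the helicase Eif4a3 into the exon junction complex. It had 89.2 and 120.1 CPM in Tbr2+ and 90.2 and 95.3 CPM in Tbr2- TSA libraries, against 321, 405 and 278 CPM in Tbr2+ and 253, 347 and 238 CPM in Tbr2- vehicle libraries. In each fraction the highest TSA value was far below the lowest vehicle value, and the 4 TSA libraries lay close together. The log2 fold change was -1.63 ± 0.15 (edgeR, adjusted p = 0.000739), with -1.68 in Tbr2+ and -1.59 in Tbr2- nuclei. It was -1.5 without the TSA libraries numbered 1 (edgeR, adjusted p = 0.0230). In mice Cwc22 lies in a segment whose copy number differs between strains, and near-identical copies make its read assignment uncertain. No label gave strain or litter, so TSA and a difference in copy number between animals cannot be told apart for this gene. Of the 17 exon junction and nonsense-mediated decay genes, 3 were higher (17.6%) and 2 lower (11.8%), against 6.54% and 4.2% of all genes. The core genes Magoh (0.82 ± 0.16) and Magohb (0.72 ± 0.15) rose with the peripheral Sap18 (0.50). Smg5, a decay factor, fell (-0.54) beside Cwc22.

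**Figure D4:**
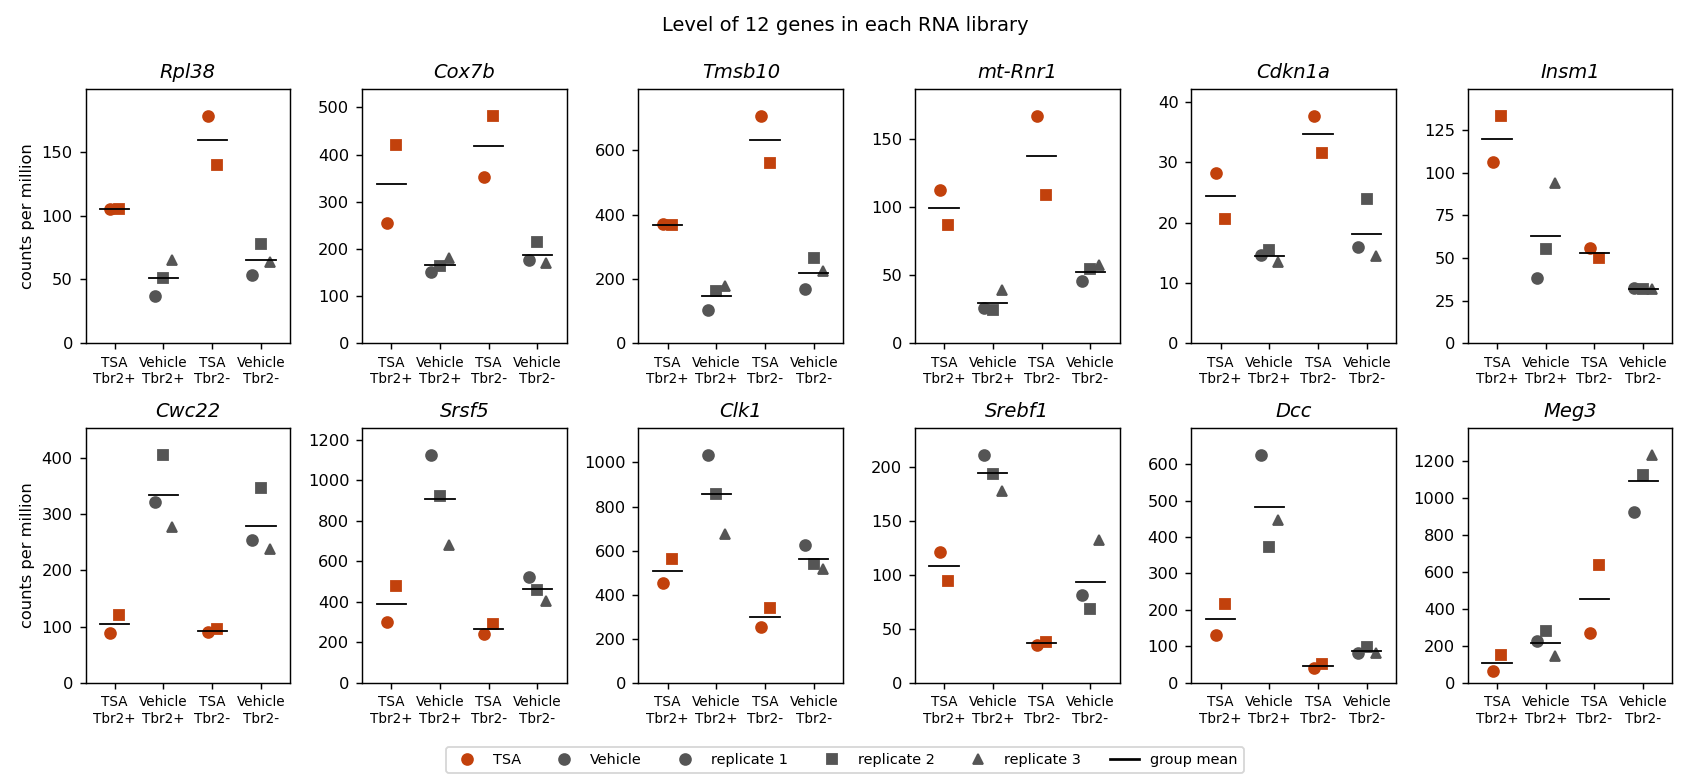
Level in CPM of 12 genes in each RNA library, with TSA libraries in orange left of the vehicle libraries in grey for each fraction, marker shape for the replicate number and a bar at the group mean. TSA libraries stand above the vehicle libraries in the upper row, from Rpl38 to Insm1, and below them in the lower row, except that the Tbr2+ ranges of Meg3 overlap.

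Nuclear long noncoding RNAs did not move as a block. Of 19 tested, 2 were higher and 4 lower, with a median of -0.23 (0.05 in Tbr2+ and -0.43 in Tbr2- nuclei). Miat had 114 and 256 CPM in Tbr2+ and 66.9 and 142 CPM in Tbr2- TSA libraries, against 344, 272 and 438 CPM in Tbr2+ and 372, 247 and 421 CPM in Tbr2- vehicle libraries. All TSA values were below the vehicle range of their fraction, with the libraries numbered 1 lowest (-1.32 ± 0.28; edgeR, adjusted p = 0.0114). Meg3, an imprinted RNA abundant in neurons, had 61.8 and 152 CPM in Tbr2+ and 270.0 and 638 CPM in Tbr2- TSA libraries, against 225, 279 and 143 CPM in Tbr2+ and 923, 1125 and 1229 CPM in Tbr2- vehicle libraries. Its Tbr2- ranges were apart while the Tbr2+ ranges overlapped at the TSA library numbered 2 (-1.14 ± 0.28; edgeR, adjusted p = 0.0202). Snhg11 (-1.15) and Neat1 (-1.73), the scaffold of paraspeckles, also fell, Malat1 had -0.53 and did not pass, and Pantr1 (0.81) and Dlx6os1 (0.63) rose. Dlx6os1 overlaps the interneuron gene Dlx6 on the other strand, and the library kit does not keep strand, so reads of the pair cannot be told apart. The summed level of the list was 7660 and 13920 CPM in Tbr2+ and 7301 and 9697 CPM in Tbr2- TSA libraries, against 15760, 13010 and 11830 CPM in Tbr2+ and 13580, 15100 and 10040 CPM in Tbr2- vehicle libraries. The TSA libraries numbered 1 held the 2 lowest sums, and the Tbr2- sum numbered 2 overlapped no vehicle sum while the Tbr2+ one did. The part of these RNAs in the changes above was not tested beyond the covariate fit.

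The largest changes among genes of at least 2 CPM included genes outside these groups. In either direction they were named only where TSA and vehicle ranges were apart in both fractions, so that separation follows from the rule. Tmem14c, a mitochondrial inner membrane protein needed for heme synthesis, had 70.0 and 83.1 CPM in Tbr2+ and 59.0 and 90.5 CPM in Tbr2- TSA libraries, against 13.8, 26.8 and 40.6 CPM in Tbr2+ and 8.58, 28.6 and 31.1 CPM in Tbr2- vehicle libraries. Every TSA library exceeded the vehicle range, and TSA was 3.05-fold higher (1.61 ± 0.32; edgeR, adjusted p = 0.00782). Rgs10, a regulator of G protein signalling, rose by 1.54 ± 0.39 on the log2 scale, the G protein subunit gene Gng10 by 1.20 ± 0.26, the selenoprotein gene Selenow by 1.20 ± 0.16 and the growth factor gene Fgf15 by 1.20 ± 0.27. The mitochondrial transfer RNA gene mt-Tp had 1.5 ± 0.45 and was called (edgeR, adjusted p = 0.0478), at a mean of under 3 CPM.

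In the other direction, Col14a1, a fibril-associated collagen, had 1.15 and 0.866 CPM in Tbr2+ and 0.251 and 0.962 CPM in Tbr2- TSA libraries, against 5.64, 4.70 and 6.91 CPM in Tbr2+ and 2.41, 4.10 and 2.45 CPM in Tbr2- vehicle libraries. The ranges were apart at low counts, and TSA was 5.28-fold lower (-2.40 ± 0.44; edgeR, adjusted p = 0.00564). Slc25a35, a mitochondrial carrier (-2.26 ± 0.42), the metalloprotease family gene Adam21 (-2.26 ± 0.55) and the G protein-coupled estrogen receptor gene Gper1 (-2.06 ± 0.42) fell as well. Bdh2 (-2.05), the zinc finger gene Zfp970 (-1.79), the kinase gene Wnk4 (-1.78) and the fibronectin receptor subunit gene Itga5 (-1.69) followed. Khnyn (-1.67), Tmbim1 (-1.65), the checkpoint gene Atrip (-1.65) and the formin Daam2 (-1.64) were also among the largest falls, with Cwc22. All of these but Cwc22 averaged under 12 CPM, and fold changes at such counts are imprecise.

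Of 18 deacetylase genes, 1 was higher (5.56%) and 3 lower (16.7%), against 6.54% and 4.2% of all genes, with a median of -0.11. Hdac10, a cytosolic enzyme that acts on polyamines, had 18.4 and 15.4 CPM in Tbr2+ and 22.1 and 19.7 CPM in Tbr2- TSA libraries, against 42.9, 36.7 and 18.4 CPM in Tbr2+ and 79.9, 43.0 and 43.9 CPM in Tbr2- vehicle libraries. In Tbr2- nuclei the ranges were far apart, while the lowest Tbr2+ vehicle library equalled the highest TSA library to within rounding (-1.18 ± 0.25; edgeR, adjusted p = 0.0104). The sirtuins Sirt3 (-0.63) and Sirt4 (-0.53), both mitochondrial, fell, and the cytoplasmic Sirt2 (0.51) rose. Hdac2, the main class I enzyme of progenitors beside Hdac1, had 306 and 331 CPM in Tbr2+ and 273 and 277 CPM in Tbr2- TSA libraries, against 249, 301 and 274 CPM in Tbr2+ and 170.1, 218 and 215 CPM in Tbr2- vehicle libraries. Its TSA libraries lay just above the vehicle range in Tbr2+ and clearly above it in Tbr2- nuclei, but it did not pass (0.33 ± 0.11; edgeR, adjusted p = 0.0702), nor did Hdac1 (-0.12, adjusted p = 0.556). None of 14 acetyltransferase genes was called (medians 0.06 in Tbr2+ and 0.05 in Tbr2- nuclei). Of 26 genes with acetyl-lysine reading bromodomains, 0 were higher and 1 lower, Brd8 (-0.48), a subunit of the NuA4 acetyltransferase complex.

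Genes known from other systems to respond to deacetylase inhibitors had 2 of 16 members higher, against 6.54% of all genes, and 0 lower. Of these 16 genes, 14 had positive estimates (median 0.32). Cdkn1a, the gene of p21 and a common marker of deacetylase inhibition, had 28.3 and 20.6 CPM in Tbr2+ and 37.6 and 31.6 CPM in Tbr2- TSA libraries, against 14.7, 15.4 and 13.4 CPM in Tbr2+ and 16.0, 23.9 and 14.4 CPM in Tbr2- vehicle libraries. All TSA values were above the vehicle range in their fraction (0.85 ± 0.18; edgeR, adjusted p = 0.00975). The metallothionein gene Mt1 rose by 0.80 ± 0.22, although its lowest Tbr2+ TSA library lay below the highest vehicle one. H1f0, the linker histone of arrested cells and another common marker, had 291 and 361 CPM in Tbr2+ and 152 and 165 CPM in Tbr2- TSA libraries, against 343, 363 and 409.8 CPM in Tbr2+ and 106, 115 and 113 CPM in Tbr2- vehicle libraries. TSA was below the vehicle mean in Tbr2+ and above the vehicle range in Tbr2- nuclei, and the common effect did not pass (0.17 ± 0.14; edgeR, adjusted p = 0.492). Without the TSA libraries numbered 1, Cdkn1a had 0.67 (edgeR, adjusted p = 0.186).

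Cell cycle inhibitors gave 2 further calls. Of 20 inhibitor and p53 target genes, 3 were higher (15%) and 0 lower, against 6.54% and 4.2% of all genes. The 3 were Cdkn1a, Cdkn1b (0.52 ± 0.13), which encodes p27, and Cdkn2d (0.58 ± 0.16), which encodes p19. Cdkn2d did not pass in 10 of the 22 alternative settings, the replicate block and the summed fractions among them, and Cdkn1b did not pass in 5, the summed fractions among them. The p53 targets Mdm2 (-0.14), Bax (0.19) and Ccng1 (0.10) did not pass. Of 25 S phase genes, 1 was higher and 0 were lower. None of 23 genes of the G2 and M phases was called, and Mki67 had -0.04 ± 0.24 (edgeR, adjusted p = 0.937). The shares called among S, G2 and M phase genes were below the 6.54% and 4.2% of all genes.

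Markers of the cell types of the sort gave fewer calls than the housekeeping groups. In bulk RNA, a change in the number of cells of a type and a change in RNA per cell cannot be told apart. Eomes had -0.35 ± 0.19 (edgeR, adjusted p = 0.275). Of 17 basal progenitor genes (median -0.17), 1 was higher (5.88%) and 0 lower, against 6.54% and 4.2% of all genes. The 1 was Insm1, a zinc finger gene that promotes the delamination of basal progenitors, with 106 and 133 CPM in Tbr2+ and 56.0 and 50.2 CPM in Tbr2- TSA libraries, against 38.1, 55.5 and 94.1 CPM in Tbr2+ and 32.5, 31.9 and 32.0 CPM in Tbr2- vehicle libraries. TSA ranges were above the vehicle ranges in both fractions (0.83 ± 0.19; edgeR, adjusted p = 0.0156), although 1 Tbr2+ vehicle library came close. Of 24 radial glia genes, 3 were higher (12.5%) and 0 lower, against the same shares of all genes. The 3 were Sox2 (0.64 ± 0.18), Dbi (0.56 ± 0.14) and Ddah1 (0.45 ± 0.13). Sox2, a stem cell transcription factor, had 28.9 and 36.3 CPM in Tbr2+ and 57.6 and 55.3 CPM in Tbr2- TSA libraries, against 26.6, 25.1 and 33.8 CPM in Tbr2+ and 31.0, 23.5 and 26.4 CPM in Tbr2- vehicle libraries. The ranges were apart in Tbr2- nuclei and overlapped in Tbr2+ nuclei. Pax6, the radial glial selector gene, had -0.03 ± 0.17 (edgeR, adjusted p = 0.934). The radial glial gene Trnp1 had 8.45 and 4.88 CPM in Tbr2+ and 8.6 and 7.44 CPM in Tbr2- TSA libraries, against 2.48, 2.64 and 3.08 CPM in Tbr2+ and 11.3, 12.9 and 6.20 CPM in Tbr2- vehicle libraries. It was above the vehicle range in Tbr2+ nuclei and overlapped it in Tbr2- nuclei, and the common effect did not pass (0.50 ± 0.36; edgeR, adjusted p = 0.406).

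Most neuronal markers had positive estimates, against 8984 of the 20078 genes tested. Called higher were 16.7% of projection neuron and 10% of interneuron genes, against 6.54% of all genes. That last share is over genes of any level, and shares were larger among abundant genes. Of genes spanning 20 to 50 kb, 5.83% rose at any level and 8.57% among protein-coding genes of at least 10 CPM. Of 24 projection neuron genes, 20 were positive, 4 were higher and 0 lower: Bhlhe22 (0.70 ± 0.15), Lmo4 (0.59 ± 0.14), Bcl11b (0.56 ± 0.16), which encodes Ctip2 of subcerebral neurons, and Crym (0.69 ± 0.20). Tbr1, the deep-layer relative of Eomes, had 0.25 ± 0.14 and did not pass (edgeR, adjusted p = 0.282). Of 20 interneuron genes 19 had positive estimates, with a median of 0.60 (0.25 in Tbr2+, 0.75 in Tbr2- nuclei), and 2 were called higher and 0 lower. Sst, the somatostatin gene of interneurons, had 57.0 and 48.6 CPM in Tbr2+ and 358 and 226 CPM in Tbr2- TSA libraries, against 16.1, 31.7 and 21.4 CPM in Tbr2+ and 105, 125 and 126 CPM in Tbr2- vehicle libraries. All TSA values exceeded the vehicle range in their fraction (1.25 ± 0.17; edgeR, adjusted p = 0.00286). Npy (0.83 ± 0.22) was the other, and the nociceptin precursor gene Pnoc, outside the list, rose by 1.29 ± 0.23. The summed level of the interneuron list was 577 and 498 CPM in Tbr2+ and 2396 and 2150 CPM in Tbr2- TSA libraries, against 427, 541 and 321 CPM in Tbr2+ and 1470, 1483 and 1217 CPM in Tbr2- vehicle libraries. In Tbr2- nuclei both TSA sums lay above the vehicle sums, and in Tbr2+ nuclei the ranges overlapped.

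Genes of the neighbouring striatum and septum had 4 of 17 members higher (23.5%) and 0 lower, against 6.54% and 4.2% of all genes. Among the 4 were Zic1 (1.04 ± 0.21), Tac1 (0.93 ± 0.27) and Ppp1r1b (0.70 ± 0.18), the last encoding DARPP-32 of striatal neurons. The summed level of the striatal and septal list was 819.5 and 1042 CPM in Tbr2+ and 998 and 1087 CPM in Tbr2- TSA libraries, against 653, 785 and 843 CPM in Tbr2+ and 679.6, 809 and 709.6 CPM in Tbr2- vehicle libraries. Within Tbr2- nuclei the TSA sums were the higher ones, and within Tbr2+ nuclei 1 of the 2 was. Whether tissue from beyond the cortex contributed was not tested. No gene was called among 10 Cajal-Retzius, 16 microglia, 16 vascular and meningeal, 8 erythroid and 8 oligodendrocyte precursor markers. The summed microglia markers lay between 58.0 and 126.0 CPM with TSA and between 68.4 and 128.4 CPM with vehicle, and the vascular and meningeal ones between 38.2 and 68.7 CPM with TSA and between 33.2 and 82.0 CPM with vehicle. The summed erythroid markers ran between 346 and 676 CPM with TSA and between 283 and 705 CPM with vehicle.

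Among signalling genes the calls were few and fell near the share over all genes. The Notch list had 1 of 23 higher, the DNA-binding effector Rbpj (0.64 ± 0.13), and 1 lower, the ligand Dll1 (-0.68 ± 0.15). Dll1 had 53.02 and 41.4 CPM in Tbr2+ and 22.5 and 21.5 CPM in Tbr2- TSA libraries, against 76.7, 55.1 and 90.2 CPM in Tbr2+ and 35.4, 32.2 and 40.5 CPM in Tbr2- vehicle libraries. TSA libraries were below the vehicle range in both fractions. Axon guidance genes had 0 of 46 higher, 2 lower and a median of -0.23. Dcc, the netrin receptor gene, had 132 and 217 CPM in Tbr2+ and 40.8 and 52.0 CPM in Tbr2- TSA libraries, against 624, 373 and 446 CPM in Tbr2+ and 81.9, 99.3 and 80.7 CPM in Tbr2- vehicle libraries. The ranges were apart in both fractions, and the Tbr2+ libraries carried the larger absolute drop (-1.19 ± 0.19; edgeR, adjusted p = 0.00396). The ephrin receptor gene Epha7 (-0.63 ± 0.14) was the other, and among 37 glutamate and GABA receptor genes the kainate receptor gene Grik2 was the 1 that fell (-0.62 ± 0.15). Both Dcc and Epha7, like Grik2, are long genes.

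Sterol, immediate-early, polycomb and BAF complex lists had shares called near or below the 6.54% and 4.2% of all genes, so their members are given singly. Sterol and fatty acid genes had 2 of 33 higher, Fdft1 (0.45 ± 0.12) and Mvk (0.48 ± 0.13), and 1 lower. The lower gene was Srebf1, which encodes the transcription factor that drives fatty acid synthesis, with 122 and 94.0 CPM in Tbr2+ and 35.2 and 37.7 CPM in Tbr2- TSA libraries, against 210.5, 194 and 177 CPM in Tbr2+ and 80.8, 68.0 and 132 CPM in Tbr2- vehicle libraries. TSA and vehicle ranges were apart in both fractions (-1.10 ± 0.18; edgeR, adjusted p = 0.00452), while Fasn (-0.09) and Scd1 (0.51), known targets of the factor, did not pass. Among 15 immediate-early genes, Nr4a3 was higher (0.87 ± 0.18) and 0 were lower. Of 19 polycomb genes, Bmi1 (0.57 ± 0.13) was higher and Cbx6 (-0.36 ± 0.10) lower, and of 22 genes of the BAF chromatin remodeller none was called (medians 0.02 in Tbr2+ and 0.09 in Tbr2- nuclei).

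No gene passed the test of a difference between fractions, and genes with the smallest p-values are given as not passing. Coq2, an enzyme gene of coenzyme Q synthesis, had 25 and 25.4 CPM in Tbr2+ and 24.1 and 19.3 CPM in Tbr2- TSA libraries, against 19.7, 15.8 and 17.3 CPM in Tbr2+ and 37.9, 32.8 and 37.9 CPM in Tbr2- vehicle libraries. TSA was above the vehicle range in Tbr2+ and below it in Tbr2- nuclei, a difference of log2 fold changes of 1.26 ± 0.29 (edgeR, adjusted p = 0.895). Dvl1 (1.23), Prickle2 (1.34) and the reelin receptor gene Vldlr (0.90) also had the larger estimate in Tbr2+ nuclei. The larger estimate lay in Tbr2- nuclei for Laptm4b (-1.69), Rbms3 (-1.66), Spryd3 (-1.19), Glyr1 (-1.0) and Glb1l2 (-3.84). The adjusted p was 0.634 or more for each of them (edgeR). Among the 2158 genes called for the common effect, 53 had an unadjusted interaction p below 0.05. Sox2 (-0.87 ± 0.29), Trnp1 (1.62 ± 0.57) and H1f0 (-0.70 ± 0.22) were among the genes with a small unadjusted interaction p, and none passed.

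The share of genes that rose was larger among short genes, while the share that fell did not grow steadily with length. The genomic span, matched for 99.2% of the genes that rose, 81.4% of those that fell and 85.5% of all tested, had a median of 9.93 kb among genes that rose, 29.2 kb among those that fell and 20.5 kb over all. Genes of any level entered these medians, and those that fell were more abundant (median 30.6 CPM) than all tested (11.6 CPM). Among protein-coding genes of at least 10 CPM, 37.1% of the 957 genes under 5 kb rose and 1.57% fell, whereas 3.72% of the 645 genes of 200 kb or more rose and 5.43% fell. The median log2 fold change of these genes was 0.36 under 5 kb and -0.05 at 200 kb or more. Their share that fell was largest, at 6.97%, in the bin of 20 to 50 kb and smaller in the longer bins. The order of the bins remained after the ribosomal protein, translation factor, mitochondrial ribosomal, respiratory chain and proteasome genes were left out, with 29.5% of 835 genes under 5 kb higher. Medians of log2 fold changes under 5 kb were 0.31 in Tbr2+ and 0.42 in Tbr2- nuclei, against 0.01 and -0.09 at 200 kb or more. They declined over all bins in Tbr2- nuclei, and in Tbr2+ nuclei only up to the bin of 20 to 50 kb, at -0.03. Span, number of introns and transcript length rise together, and their parts were not tested.

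**Figure D5:**
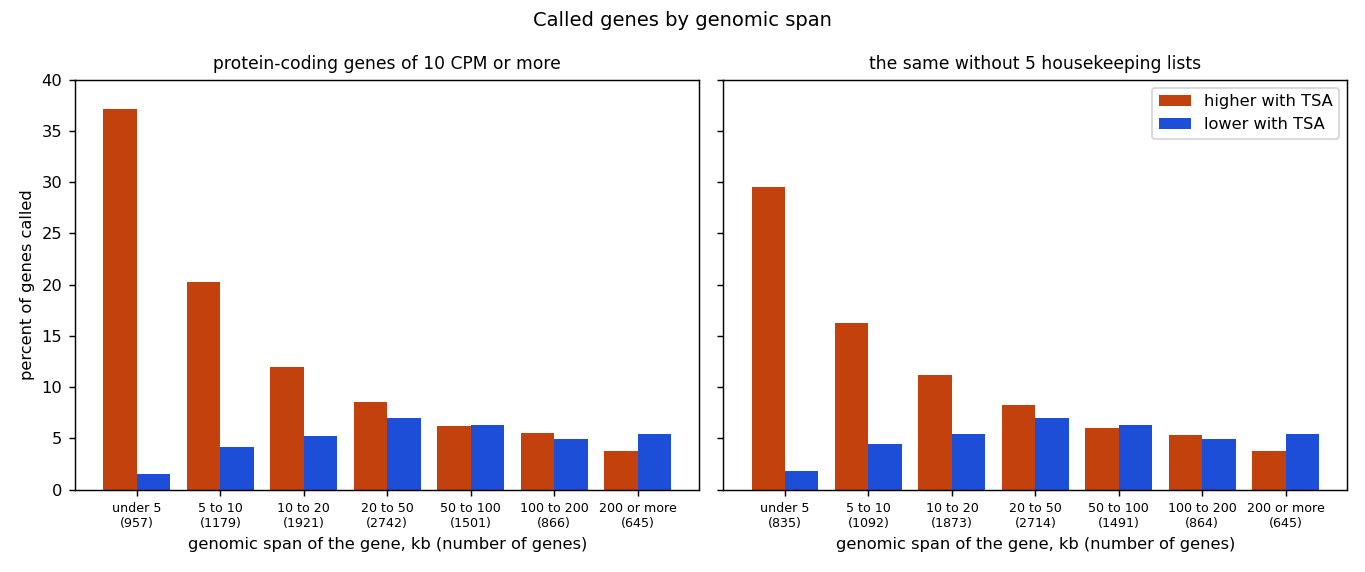
Percent of genes called higher (orange) or lower (blue) with TSA by genomic span in kb, for protein-coding genes of at least 10 CPM (left) and for the same genes without 5 housekeeping lists (right), with the number of genes in brackets. The share higher declines over the bins, with 37.1% under 5 kb and 3.72% at 200 kb or more on the left.

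H3K9ac peaks at gene starts were set beside the RNA calls. The peak lists were called by the authors in each of 15 libraries, and a gene start counted as marked where a peak lay within 1 kb. Of 1037 higher genes with a placed start, 1010 (97.4%) were marked in all 15 libraries, against 487 of 537 lower genes (90.7%) and 8790 of 11191 genes not called (78.5%). None of the higher or lower genes was marked in all TSA and no vehicle libraries, and none in all vehicle and no TSA libraries. Among genes not called, these numbers were 1 and 0. Since most called genes were marked in every library, such a switch could hardly be seen among them. Per library, the marked share of higher genes was 98.0% to 98.2% in Tbr2+ TSA and 99.1% to 99.2% in Tbr2- TSA libraries, against 98.6% to 98.9% in Tbr2+ vehicle and 99% to 99.2% in Tbr2- vehicle libraries. For genes not called it was 81.6% to 82.6% and 84.9% to 87.1% in the same TSA groups, against 85.8% to 87.0% and 86.5% to 87.7% in the vehicle groups. The Tbr2+ TSA libraries also had the fewest peaks, 31823 to 40053, against 61487 to 82164 in Tbr2+ vehicle libraries. Called genes were also more abundant than those not called, and peak presence says nothing of peak height.

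The starts of 5 genes that stand for the changes are shown with the bases around them, 3 that rose (Rpl38, Tmsb4x and Cox7b) and 2 that fell (Srsf5 and Cwc22). All 5 starts were marked by H3K9ac in all 8 TSA and all 7 vehicle libraries. The sequences are from RefSeq on GRCm38.p6, 130 bases before to 30 bases after the annotated start, at chr11:114668450-114668609, plus strand for Rpl38, chrX:167209189-167209348, minus strand for Tmsb4x, chrX:106015570-106015729, plus strand for Cox7b, chr12:80945369-80945528, plus strand for Srsf5 and chr2:77946327-77946486, minus strand for Cwc22. Capitals mark CCGGAAG, the core bound by ETS family factors, and CTTTCC, a pyrimidine run of the kind at which ribosomal protein transcripts start, on either strand. The NRF1 and TATA motifs named below were searched too and do not occur in these windows.
Rpl38: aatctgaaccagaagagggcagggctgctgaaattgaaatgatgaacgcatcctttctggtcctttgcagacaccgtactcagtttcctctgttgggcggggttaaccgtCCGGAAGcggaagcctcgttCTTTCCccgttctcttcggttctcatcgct
Tmsb4x: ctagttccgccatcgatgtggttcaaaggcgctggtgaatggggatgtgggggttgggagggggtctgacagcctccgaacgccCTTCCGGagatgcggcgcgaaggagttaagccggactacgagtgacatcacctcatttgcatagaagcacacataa
Cox7b: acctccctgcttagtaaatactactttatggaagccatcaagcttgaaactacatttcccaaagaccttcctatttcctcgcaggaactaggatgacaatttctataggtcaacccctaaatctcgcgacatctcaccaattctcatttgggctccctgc
Srsf5: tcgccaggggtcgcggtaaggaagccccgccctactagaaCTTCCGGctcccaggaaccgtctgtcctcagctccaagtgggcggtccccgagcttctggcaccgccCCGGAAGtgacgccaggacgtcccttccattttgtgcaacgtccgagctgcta
Cwc22: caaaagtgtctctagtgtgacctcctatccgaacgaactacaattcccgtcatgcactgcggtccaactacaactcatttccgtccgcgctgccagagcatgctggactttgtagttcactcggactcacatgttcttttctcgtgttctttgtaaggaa
The CTTTCC of Rpl38 begins at the annotated start base. Cox7b and Cwc22 hold neither motif in this window. Over 300 bases of promoter, 250 before and 50 after the start, CCGGAAG on either strand was present in 25.3% of the higher, 21.4% of the lower and 16.4% of the genes not called, in 41.4% of 58 ribosomal protein genes and in 9.93% of all 27025 genes in the table. CTTTCC was present in 33.1% of the higher, 30.5% of the lower and 30.1% of the genes not called and in 50% of the ribosomal protein genes, against 29.3% of all. Within 20 bases of the start and on the gene's strand, CTTTCC or CTTTTC stood in 24.1% of ribosomal protein genes, 4.24% of the higher, 4.1% of the lower and 3.68% of the genes not called, against 3.9% of all. GCATGCGC, part of the NRF1 site, was present in 17.2% of 64 respiratory chain genes, 7.04% of the higher, 7.08% of the lower and 5.14% of the genes not called, against 3.05% of all. TATAAA was present in 9.45% of the higher, 6.52% of the lower and 9.71% of the genes not called, against 15.7% of all. These shares describe letters and were not tested.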

How the data were processed

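The RNA files hold the authors' read counts per gene as deposited, whole numbers with no normalization, for 48709 Ensembl genes, of which 48349 had a symbol. Per the labels' protocols, libraries were made with TruSeq RNA v2, which does not keep strand, so overlapping and antisense genes are uncertain. The submitters' processing notes name SAMtools, MACS2 and mm10, while no aligner or counter is given in the sources used here. The H3K9ac peak lists hold −log10 q-values and, per the file headers, the authors ran MACS 2.1.0.20140616 on each library. Enrichment and height were not used.

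Genes were kept with edgeR's filterByExpr (20078), scaled with TMM and fitted with edgeR 4.0.16 (R 4.3.3, robust quasi-likelihood) with fraction and agent as additive terms. Errors of log2 fold changes are SE. The interaction of fraction and agent was tested in the same way. Effects within fractions came from a fit with a mean for each group over all RNA libraries. Single library measures were tested by exact permutation within fractions (100 arrangements, two-sided). Gene p-values were adjusted over all genes tested (Benjamini-Hochberg, 0.05). Library totals of 18567111 to 26282652 counts allow fold changes of genes of a few CPM only with wide error, and the biological coefficient of variation was 0.379. DESeq2 1.42.0 and limma 3.58.1 gave alternatives. Scripts were tested on simulated data. No pair of libraries was a duplicate.

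Named were the 14 largest called changes in each direction with a mean of at least 2 CPM, ranges apart within each fraction and no clone or pseudogene name, up to 4 called members of each list with the smallest adjusted p, the 5 smallest interaction p in each direction, and always Cwc22, Tmsb4x, Tmsb10, H1f0, Cdkn1a, Hdac2, Hdac1, Trnp1, Mki67, Tbr1, Sox2, Pax6 and Eomes. Other genes, mostly list members that did not pass, were named after their values were seen. Members, lists and tests were chosen with earlier results of these data known, and counts within lists are therefore descriptions. Gene spans and promoters came from RefSeq on GRCm38.p6, matched by symbol or by a synonym held by a single gene. Input libraries were not used, and some genes that the rule selects are not reported here.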

Additional observations from a re-analysis of the deposited data

Results flagged for a closer look

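For 5 of the named genes every TSA library lay on one side of the vehicle range in Tbr2+ nuclei and on the opposite side in Tbr2- nuclei. These genes were named for a small interaction p, which favours such opposite ranges. The share of all genes tested with opposite ranges was not counted. The difference of log2 fold changes, Tbr2+ minus Tbr2-, was 1.26 for Coq2, -1.0 for Glyr1, -1.19 for Spryd3, -1.66 for Rbms3 and -1.69 for Laptm4b. The interaction test did not pass for any of them (edgeR, adjusted p = 0.634 or more). Laptm4b, a lysosomal membrane protein gene, had 18.9 and 22.3 CPM in Tbr2+ and 22.4 and 23.4 CPM in Tbr2- TSA libraries, against 37.8, 36.0 and 48.9 CPM in Tbr2+ and 16.4, 14.5 and 11.2 CPM in Tbr2- vehicle libraries. Rbms3, which encodes an RNA-binding protein, had 22.4 and 23.6 CPM in Tbr2+ and 49.9 and 48.4 CPM in Tbr2- TSA libraries, against 35.5, 23.8 and 35.2 CPM in Tbr2+ and 20.9, 24.6 and 18.4 CPM in Tbr2- vehicle libraries. TSA was below vehicle in Tbr2+ and above it in Tbr2- nuclei for both genes, narrowly so for Rbms3 in Tbr2+ nuclei.

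Among the H3K9ac libraries of Tbr2- nuclei with TSA, 1 of 4 stood apart from the other 3 in the share of marked gene starts, at 99.2% for genes that rose and 93.5% for genes that fell. The others were tied at 99.1% and at 94.0%, so the gaps are small. By chance the rule flags about 1 of 20 groups whose values are not tied, so that rate does not hold for these ties.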

How the results depend on the processing

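The common effect gave 1314 higher and 844 lower genes, and no called gene that is named reversed its direction in any of the alternatives run. Other scalings (RLE 1334 and 829, upper quartile 1204 and 956), no filter on low counts (1357 and 827), limma-voom (1488 and 1028), the equal-weight average of the fraction effects (1282 and 896) and the library pair as a random block (1223 and 716) stayed within 1.5 times the reported counts, whereas DESeq2 gave 1885 higher and 1558 lower genes. Upper-quartile scaling moved the median of all genes to -0.10, against -0.07. With both fractions summed per replicate the counts were 486 and 210, and with the noncoding RNA covariate 3 and 1, where Cwc22 and Cox7b were the named genes that passed. Leaving out 1 library gave 506 to 1434 higher and 240 to 986 lower genes. Leaving out both TSA libraries numbered 1 gave 5 and 2, with mt-Rnr1, Tmsb10, Cwc22 and Cox7b the named genes among them, and leaving out both numbered 2 gave 1135 and 902. These pairs were chosen after seeing the data, and a lone library is assumed to vary like the other groups. The cause was not tested.

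With the replicate number as a block, 1058 genes were higher and 617 lower, of which 951 and 518 were among those reported. After centring on group means, libraries of the same agent and number correlated across fractions at 0.081 to 0.12, each best with its own number. With 2 TSA libraries per fraction, the TSA values are equal by construction. Numbers did not correlate across agents. Over all genes the sharing by number was small, but Gm6166 and Gm42047, given below, were high in the TSA libraries numbered 2 of both fractions. The reported fit treats the libraries as independent, and summing both fractions per replicate gave 486 higher and 210 lower genes. The interaction test called 12 genes with DESeq2 and 0 with edgeR. DESeq2 gave no adjusted p for 1967 genes. With a window of 0.5 kb the marked share of lower genes was 92.7%, against 93.7%, and the other peak settings moved by less than the spread between libraries. The check against transcript length was not run, since only genomic spans were at hand.

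Depth limits genes of a few CPM, and 2 TSA libraries per fraction limit the rest. Calls in either direction rest on the TSA libraries numbered 1, which also had the lowest sums of nuclear noncoding RNA. Without them the medians were 0.68 for ribosomal protein, 0.52 for respiratory chain, 0.37 for translation factor and -0.15 for splicing regulator genes, and those of 4 lists near 0 changed sign (G2 and M phase -0.03, microglia -0.01, erythroid -0.12, immediate-early -0.04).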

Other observations

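Gene families outside the lists were chosen after their values were seen and are given as counts. Among 9 tested genes of G protein gamma subunits, 4 were higher and 0 lower with TSA (median log2 fold change 0.62), among them Gng10. Importers of the mitochondrial membranes (Timm and Tomm genes) had 10 of 26 higher and 0 lower, and small integral membrane protein genes (Smim) 6 of 21 higher and 0 lower. Zinc finger genes named Zfp had 6 of 369 higher and 21 lower, and solute carriers 5 of 262 higher and 15 lower. Clustered protocadherins, which give neurons their surface identity, had 0 of 54 higher and 4 lower. Gene models named Gm had 40 of 4076 higher and 172 lower, against 6.54% and 4.2% over all genes.

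Padi4, which encodes a deiminase that converts arginine of histones to citrulline, had 3.40 and 1.41 CPM in Tbr2+ and 1.63 and 2.26 CPM in Tbr2- TSA libraries, against 0, 0 and 0 CPM in Tbr2+ and 0.127, 0 and 0 CPM in Tbr2- vehicle libraries. It was at or near 0 in vehicle libraries and above 1 CPM in all 4 TSA libraries (edgeR, adjusted p = 0.00331), at counts too low for a fold change to be read. The gene models Gm6166 and Gm42047 were high in the TSA libraries numbered 2 alone. Gm6166 had 1.78 and 44.8 CPM in Tbr2+ and 2.46 and 51.5 CPM in Tbr2- TSA libraries, against 0.716, 0.659 and 1.19 CPM in Tbr2+ and 1.14, 1.76 and 1.11 CPM in Tbr2- vehicle libraries. Gm42047 had 0 and 19.1 CPM in Tbr2+ and 0 and 7.19 CPM in Tbr2- TSA libraries, against 0, 0 and 0 CPM in Tbr2+ and 0, 0 and 0.0463 CPM in Tbr2- vehicle libraries. Aldh1a7, an aldehyde dehydrogenase gene, had 0 and 0 CPM in Tbr2+ and 0 and 0 CPM in Tbr2- TSA libraries, against 0.969, 4.78 and 1.98 CPM in Tbr2+ and 0.634, 2.29 and 0 CPM in Tbr2- vehicle libraries.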
